A study of Mus musculus with 3 samples.

Results

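Basal epidermal keratinocytes are the layer of epidermal cells that sits on the basement membrane. They were studied here in mouse skin wounds covered with a gelatin methacryloyl hydrogel loaded with apoptotic neutrophils (AN-GelMA), in wounds covered with the hydrogel alone (GelMA), and in wounds given no gel (untreated). The members were chosen by measured values, that is, by the unique molecular identifiers (UMIs, each standing for 1 captured molecule) of 17 genes in each cell. A member had at least 3 UMIs over the anchoring genes Col17a1, Itgb4 and Krt15 and at least 2 over the basal keratins Krt14 and Krt5. It had at most 1 over the upper follicle genes Krt79 and Gata6, none of the outer root sheath and companion layer genes Tbx1 and Krt75, and at most 2 over the suprabasal genes Krt10 and Lor. It also had at most 2 over the injury keratins Krt6a, Krt6b and Krt16, at most 1 of the sebaceous gene Far2 and at most 2 over the hair genes Krt35 and Krt71. The rule found 1881 members among 26953 cells that passed limits of 250 genes or more and 10% or less of UMIs from mitochondrial genes. Of these, 820 of 9612 cells came from AN-GelMA (8.53%, exact 95% interval 7.98 to 9.11%), 578 of 11302 from GelMA (5.11%, 4.72 to 5.54%) and 483 of 6039 from the untreated wound (8.0%, 7.33 to 8.71%). These shares also depend on the rule and on the other cells in each library, so no difference in basal cells is read from them.

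The mice were C57BL/6J females, wounded at postnatal day 50. Each wound was 5 mm wide, reached through all layers of the dorsal skin and was held open by a splint. Gel was applied as 20 µL and set under ultraviolet light for 1 min. After 5 days the wound was cut out with a 2 mm margin, so that wound bed and surrounding skin are in the same sample. The tissue was fixed for 24 h and profiled with 10x Genomics GEM-X Flex, a chemistry that reads transcripts in fixed cells through gene-specific probes. Each group is 1 library, the number of mice behind it is not stated in the labels, and the untreated library is titled Sham while the files of the AN-GelMA library carry the word Heat. Gel, ultraviolet light, animal, piece of skin and library therefore cannot be told apart, and no test between groups was possible.

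Basal keratinocytes hold on to the basement membrane through hemidesmosomes, built from collagen XVII and the integrin of alpha-6 and beta-4 chains, and carry an inner scaffold of keratins 5 and 14. They divide, and their daughters detach and move up while they differentiate. At a wound edge they loosen these anchors, secrete matrix-cutting enzymes and crawl over the wound bed, driven in part by ligands of the epidermal growth factor (EGF) receptor.

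The member cells held 1255973 UMIs in AN-GelMA, 935178 in GelMA and 777490 in the untreated library. The median member had 1260.5 UMIs in AN-GelMA, 1435.5 in GelMA and 1321 in the untreated library, from a median of 988, 1112 and 1021 genes. Summed counts were divided by these totals and brought to the same total in every library (CPM), so that 1 UMI stands for 0.796 CPM in AN-GelMA, 1.07 in GelMA and 1.29 in untreated cells. Values are not scaled for gene length or probe number, so levels are compared between cells and libraries and not between genes. The whole libraries held 14156692, 21613482 and 8945496 UMIs, and 94 to 135 cell barcodes were shared between pairs of libraries, none of them by member cells of both.

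The GelMA library stood apart before any comparison. Over all cells that were not members, the hair matrix and shaft markers summed to 61.1 CPM in AN-GelMA, 2253 in GelMA and 167 in the untreated library. The same markers summed to 19.1 CPM in AN-GelMA, 429 in GelMA and 41.2 in untreated basal cells, with Krt81, Krt83, Krt86, Krt31 and Krt33b at 0 in AN-GelMA, none at 0 in GelMA, and Krt33b at 0 in the untreated cells. Skeletal muscle markers, all 8 of them detected in each library, gave 53.3 CPM in AN-GelMA, 533 in GelMA and 232 in untreated basal cells. Melanocyte markers gave 103, 436 and 37.3 CPM in AN-GelMA, GelMA and untreated basal cells, with Pmel, Tyr and Tyrp1 at 0 in the untreated ones. Fibroblast markers ran the other way, at 1092 CPM in AN-GelMA, 294 in GelMA and 1047 in untreated basal cells. Macrophage markers were at 173, 115 and 167 CPM in AN-GelMA, GelMA and untreated basal cells, with all 8 detected in each. Of 8 neutrophil markers, 5 were detected in AN-GelMA, 5 in GelMA and 3 in untreated basal cells, at summed levels of 62.1, 82.3 and 55.3 CPM, and the defining genes Cxcr2 and Ly6g were at 0 in all 3. Some genes that the rule limits were also highest in the remaining GelMA cells. Krt71 was at 4.05 CPM there in AN-GelMA, 1525 in GelMA and 102 in untreated, and Krt75 at 15.1, 456 and 47.0 CPM, while Krt79 was at 468, 450 and 465 CPM. Non-member cells with at least 10 UMIs of muscle markers numbered 186 in AN-GelMA, 880 in GelMA and 183 in untreated. Their part in the shares of members was not tested. Member cells with at least 2 UMIs of hair, pigment or muscle markers numbered 20 in AN-GelMA, 191 in GelMA and 19 in the untreated library. The part these transcripts of other cells play in the differences below was not tested, and most named ratios were recomputed without those cells.

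**Figure D1:**
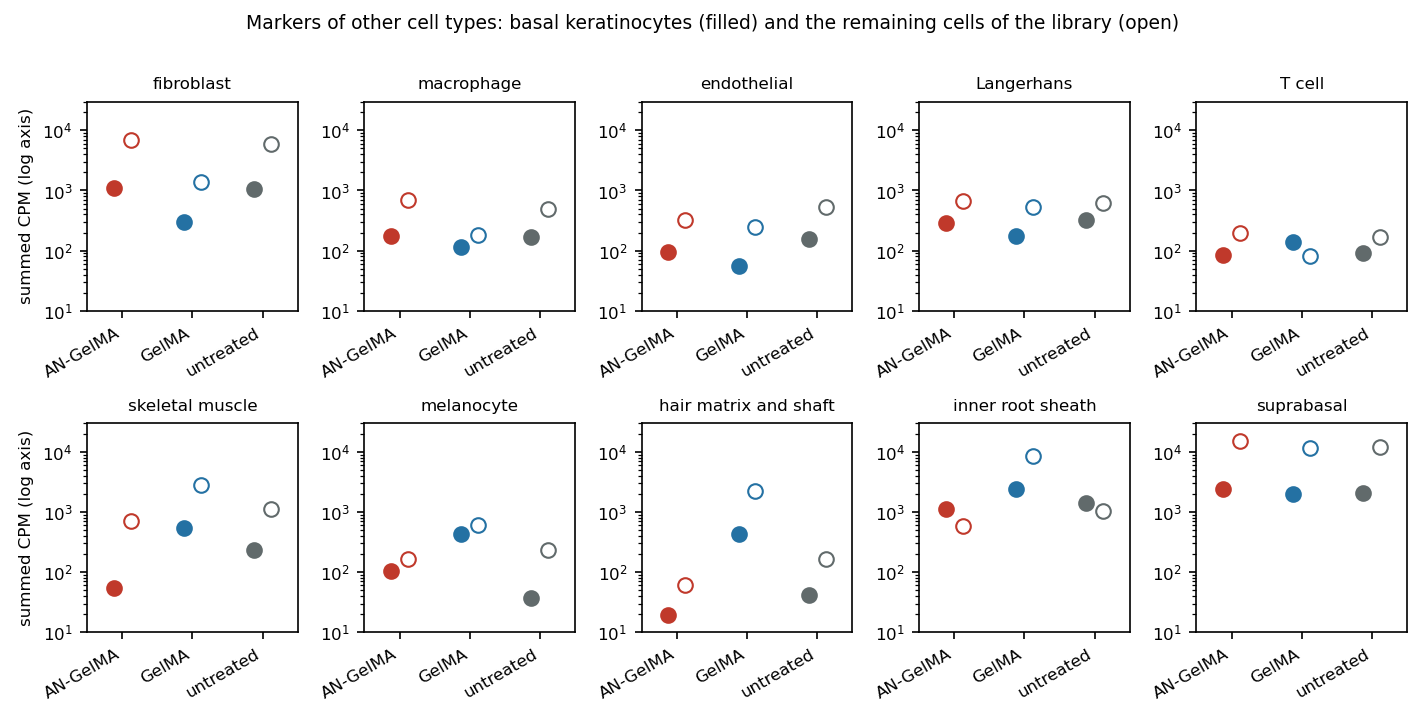
Summed CPM (log axis) of markers of 10 other cell types in basal keratinocytes (filled circles) and in the remaining cells of the same library (open circles), for AN-GelMA, GelMA and untreated wounds. Hair matrix and shaft markers in basal cells were at 19.1 CPM in AN-GelMA, 429 in GelMA and 41.2 in untreated cells, and fibroblast markers at 1092, 294 and 1047 CPM.

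Genes outside the rule gave these cells a basal profile in all 3 libraries. Itga6, the integrin chain that pairs with Itgb4 in hemidesmosomes, was at 772 CPM in AN-GelMA, 689 in GelMA and 819 in untreated basal cells. In suprabasal keratinocytes, taken as cells with at least 5 UMIs of Krt10 and Lor, it was at 92.7 CPM in AN-GelMA, 42.3 in GelMA and 108 in the untreated library. Col7a1, the collagen of the anchoring fibrils under the basement membrane, was at 885, 821 and 846 CPM in AN-GelMA, GelMA and untreated basal cells, against 88.5, 35.5 and 76.7 CPM in suprabasal cells of those libraries. Both genes were thus several times higher in basal than in suprabasal cells of every library, and injury and upper follicle keratinocytes lay in between. Dll1, a Notch ligand, was at 352, 346 and 327 CPM in AN-GelMA, GelMA and untreated basal cells and at 36.6, 22.9 and 19.2 CPM in the suprabasal ones. Trp63, the transcription factor that sets up stratified epithelium, was at 1347 CPM in AN-GelMA, 1392 in GelMA and 1371 in untreated basal cells, and at 592 to 625 CPM in suprabasal cells. Filaggrin (Flg), made in the granular layer, was at 303, 453 and 277 CPM in AN-GelMA, GelMA and untreated basal cells, with log2 ratios over suprabasal cells of -6.76, -5.78 and -6.65. Because the rule itself divided these cells by keratin and adhesion genes, the contrasts are a description with no test.

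Some of the widest gaps from each kind of neighbour were shared by the 3 libraries. Against suprabasal cells, the 10 genes with the largest smallest ratio over the libraries were Fst, Bmpr1b, Cdk1, Ctnnal1, Moxd1, Scube2, Mcm10, Parpbp, Abcg2 and Tspear. Follistatin (Fst), a secreted blocker of activins, led them with log2 CPM ratios of 4.94 in AN-GelMA, 4.31 in GelMA and 5.02 in the untreated library. Cdk1, the kinase that drives entry into mitosis, had ratios of 4.27, 4.17 and 5.18 in AN-GelMA, GelMA and untreated cells. Late differentiation genes were lowest, among them Alox12b, a lipoxygenase of the skin barrier, and cornified envelope genes of the Lce1 cluster. Against injury keratinocytes (at least 5 UMIs of Krt6a, Krt6b and Krt16), Fgfr2, the receptor for keratinocyte growth factors, stood at log2 ratios of 4.59 in AN-GelMA, 3.69 in GelMA and 3.95 in the untreated library. The cornified envelope precursor Sprr1b was at the other end, with -6.27, -7.24 and -7.46 in AN-GelMA, GelMA and untreated cells. Against upper follicle keratinocytes (at least 3 UMIs of Krt79 and Gata6), Lama1, a laminin chain, and Wnt3, a Wnt ligand, were among the 10 highest genes, which Tgm7 led. Lama1 had log2 ratios of 5.15, 5.04 and 5.56 in AN-GelMA, GelMA and untreated cells. The lipid enzymes Fa2h and Elovl3 and the fat droplet gene Cidea were lowest there.

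**Figure D2:**
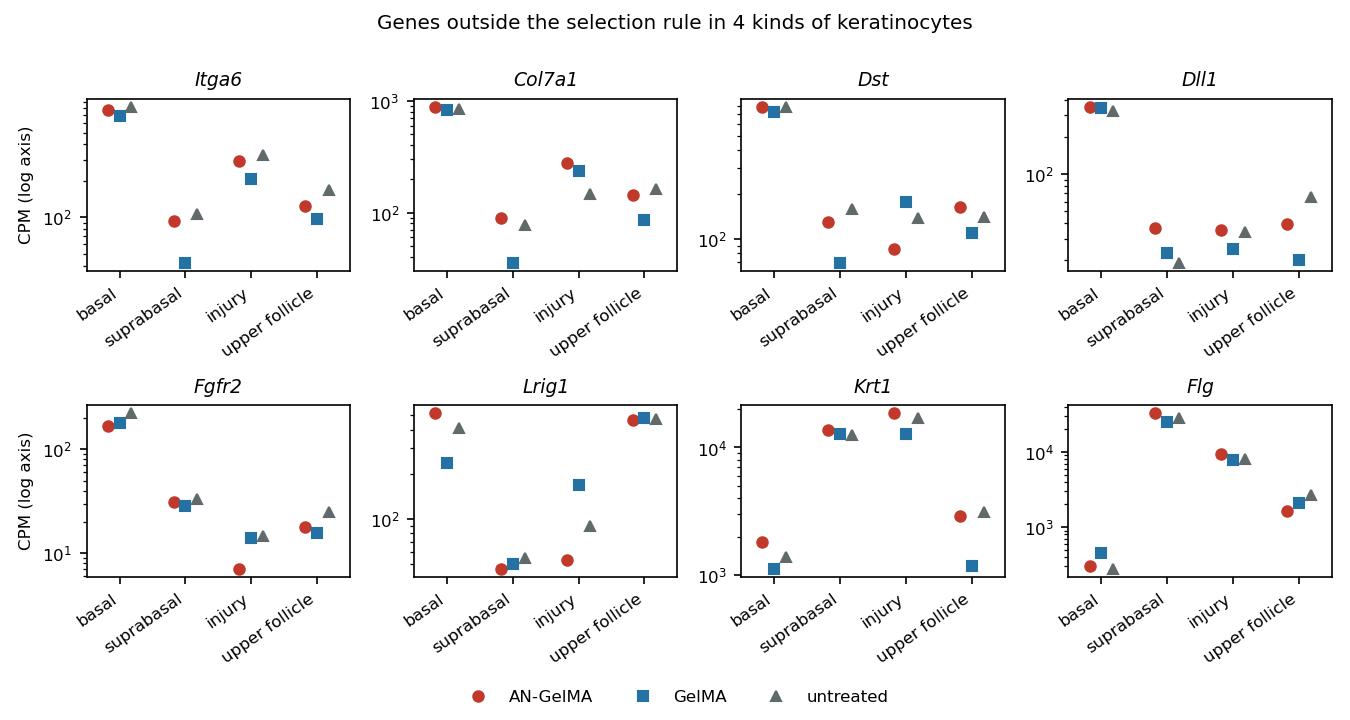
Level (CPM, log axis) of 8 genes outside the selection rule in basal, suprabasal, injury and upper follicle keratinocytes of AN-GelMA (circles), GelMA (squares) and untreated (triangles) wounds. Itga6, Col7a1, Dst, Dll1 and Fgfr2 were highest in basal cells of every library, while Lrig1 in GelMA was at 239.5 CPM in basal and 480 CPM in upper follicle cells.

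The genes used by the rule are given as a description only. Col17a1 was at 2541 CPM in AN-GelMA, 2825 in GelMA and 2599 in untreated basal cells, and Itgb4 at 1760, 1747 and 1717 CPM. Krt14 was at 5563, 6127 and 5132 CPM, and Krt5 at 464, 1055 and 615 CPM, in AN-GelMA, GelMA and untreated basal cells. At the limit of the rule, cells just inside with 3 UMIs of the anchoring genes (126 in AN-GelMA, 85 in GelMA, 72 untreated) had Itga6 at 668, 421 and 539 CPM in AN-GelMA, GelMA and untreated. Cells just outside, with 2 UMIs (117 in AN-GelMA, 109 in GelMA, 69 untreated), had 511, 485 and 775 CPM in that order of libraries. Cells on the 2 sides of the limit therefore overlapped in this gene.

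The members were not uniform. Grouped by their own expression they fell into 9 clusters, whose leading genes are a description and whose sizes are not compared between libraries. A cluster of 354 cells was led by Fst, Aldh3a1, Adamts9, Lhx2 and Lrig1, with Fst at 1166 CPM against 127 CPM in the other members. Lhx2 and Lrig1 are known from hair follicle stem and upper follicle cells. A cluster of 173 cells was led by Mmp13, Mmp9, Areg, Nrg1 and Inhba, all known from migrating wound edge epithelium, with Mmp13 at 1171 CPM against 2.96 CPM in the others. A cluster of 221 cells led by Krt1 and Krt77 carried the first keratins of the suprabasal programme, with Krt1 at 6944 CPM against 618 CPM. A cluster of 234 cells was led by the mitotic genes Aspm, Ube2c and Nusap1. The largest, of 746 cells, was led by the hair and muscle transcripts Krt40, Krt26, Krt72 and Myh4. These lay in few members, in GelMA in 5 cells for Krt40, 43 for Krt26, 21 for Krt72 and 19 for Myh4. Most cells of that cluster therefore held none of them, and its leading genes do not describe its typical cell. The other 4 clusters, of 7 to 81 cells, were led by melanocyte, collagen, myeloid or endothelial genes.

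Division was common among these cells. After each cell was thinned to 1000 UMIs, cells with 3 or more UMIs of the cell cycle list were 24.5% of 599 in AN-GelMA, 28.2% of 461 in GelMA and 21.2% of 373 untreated basal cells. Without thinning the shares were 26.6%, 34.4% and 26.7% in AN-GelMA, GelMA and the untreated library. In skeletal muscle type cells (at least 10 UMIs of muscle markers) the thinned shares were 3.85%, 2.48% and 0.935% in AN-GelMA, GelMA and the untreated library. A UMI of Trp63 was seen in 40%, 32.0% and 25.2% of these thinned cells, against 32.1%, 37.2% and 31.2% of suprabasal cells. Muscle type cells are therefore no floor free of keratinocyte transcripts, and how far they are mixtures was not tested. Median depths were 1349, 1675 and 1122 UMIs in those muscle type cells of AN-GelMA, GelMA and the untreated library. Among basal cells the exact intervals of the shares overlapped, at 21.1 to 28.2% in AN-GelMA, 24.1 to 32.5% in GelMA and 17.1 to 25.7% in the untreated library. Thinning left out 221 basal cells in AN-GelMA and 117 in GelMA.

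Between libraries, a gene was called higher or lower when its CPM differed by 1.5 times or more and an exact 95% interval of the log2 ratio lay off 0. The interval covers counting error only and treats UMIs as independent, although several can come from 1 cell. Among 8791 genes with at least 50 UMIs over the 3 libraries, AN-GelMA over GelMA had 602 higher (6.85%) and 866 lower (9.85%). GelMA over untreated had 789 higher (8.98%) and 587 lower (6.68%). AN-GelMA over untreated had 164 higher (1.87%) and 255 lower (2.9%). In either direction, that is 16.7% of genes for AN-GelMA over GelMA, 15.7% for GelMA over untreated and 4.77% for AN-GelMA over untreated. These shares of all genes are the background for every count of list genes given below. These 3 comparisons share libraries, so GelMA enters 2 of them from opposite sides. Counts were also made over genes no lower in basal cells than in the remaining cells, judged in whichever library had the higher basal level. The difference itself thus helps to decide which genes pass, so these counts are a description and do not show that other cells' transcripts were removed. AN-GelMA over GelMA then had 292 higher (4.91%) and 561 lower (9.43%) of 5946 genes. The same filter gave 559 higher (9.39%) and 289 lower (4.85%) of 5955 genes in GelMA over untreated, and 116 higher (1.92%) and 159 lower (2.63%) of 6055 in AN-GelMA over untreated. In either direction these come to 14.3% for AN-GelMA over GelMA, 14.2% for GelMA over untreated and 4.54% for AN-GelMA over untreated. The median log2 ratio of all tested genes was -0.03 for AN-GelMA over GelMA, 0.005 for AN-GelMA over untreated and 0.03 for GelMA over untreated.

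Genes known from hair, fibroblasts and macrophages were among those with the widest ratios. Krt26, a keratin of the inner root sheath, had no UMI in AN-GelMA, 312 CPM in GelMA and 1.29 CPM in untreated basal cells, and its 292 UMIs in GelMA lay in 43 cells, 119 of them in 1 cell. Krt72, Krt27, Krt40, Lyg2 and Vsig8 were likewise at 0 in AN-GelMA, at 103 to 149 CPM in GelMA and at 3.86 CPM or less in untreated basal cells. For Krt40, 94 of the 99 GelMA UMIs lay in 1 cell, and its level in GelMA was 106 CPM in basal cells and 53.5 CPM in the remaining cells. Collagen I (Col1a1), a fibroblast product, was at 436 CPM in AN-GelMA, 112 in GelMA and 377 in untreated basal cells, and the remaining cells had 2865, 536 and 2552 CPM in those libraries. The macrophage elastase Mmp12 was at 58.1, 1.07 and 42.4 CPM in AN-GelMA, GelMA and untreated basal cells, against 208, 17.5 and 356 CPM in the remaining cells. All 8 genes had their difference from GelMA in the same direction in the remaining cells.

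Several genes of growth factor signalling were higher in GelMA. Etv4, a transcription factor switched on by fibroblast growth factor and EGF signalling, was at 42.2 CPM in AN-GelMA, 148 in GelMA and 28.3 in untreated basal cells. Its log2 ratio was -1.81 (95% interval -2.29 to -1.34) for AN-GelMA over GelMA and 2.38 (1.73 to 3.10) for GelMA over untreated. GelMA thus held the high value and the other libraries lay together, with AN-GelMA over untreated at 0.58 (-0.17 to 1.36). Epgn, a ligand of the EGF receptor, was at 37.4, 164 and 63.0 CPM in AN-GelMA, GelMA and untreated basal cells, and was called lower in AN-GelMA than in both GelMA (log2 ratio -2.13, -2.63 to -1.65) and the untreated cells (-0.75, -1.36 to -0.14). The call against untreated cells was lost in 2 of 14 alternatives, with -0.36 as the value nearest 0. Dusp6, a phosphatase induced by and acting on ERK, was at 26.3, 88.8 and 34.7 CPM in AN-GelMA, GelMA and untreated basal cells, giving log2 ratios of -1.76 for AN-GelMA over GelMA and 1.35 for GelMA over untreated. Without cells that held hair, pigment or muscle markers these came to -0.92 and 0.60. Spry1, another feedback inhibitor of the pathway, was at 7.17 CPM in AN-GelMA, 47.0 in GelMA and 0 in untreated basal cells. Against the 3 UMIs that a count of 0 allows, GelMA over untreated was at a log2 ratio of 3.61, or 3.25 at the lower end of the counting interval of GelMA. GelMA was also the highest library in the remaining cells for Etv4, Epgn and Spry1. Etv4 was at 27.2 CPM there in AN-GelMA, 81.9 in GelMA and 35.9 in the untreated library. Epgn was at 13.7, 52.2 and 20.2 CPM and Spry1 at 24.7, 47.3 and 25.4 CPM, so these differences were not particular to basal cells.

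Receptors of this pathway moved in both directions. Fgfr3 was at 751 CPM in AN-GelMA, 1241 in GelMA and 678 in untreated basal cells, a log2 ratio of -0.73 (-0.85 to -0.60) for AN-GelMA over GelMA and 0.87 (0.72 to 1.02) for GelMA over untreated. Fgfr1 was at 471, 288 and 486 CPM in AN-GelMA, GelMA and untreated basal cells, so it was higher in AN-GelMA than in GelMA by 0.71 on the log2 scale. For AN-GelMA over GelMA each of these receptors lost its call in 1 of 14 alternatives, at -0.52 for Fgfr3 and 0.45 for Fgfr1. Fgfr2 (169, 179 and 224 CPM in AN-GelMA, GelMA and untreated) and Egfr (237, 199 and 261 CPM) were not called in any comparison. Lrig1, a membrane protein that dampens EGF receptor signalling and marks stem cells of the upper follicle, was at 518 CPM in AN-GelMA, 239.5 in GelMA and 413 in untreated basal cells. That was a log2 ratio of 1.11 (0.89 to 1.34) for AN-GelMA over GelMA and -0.79 (-1.04 to -0.53) for GelMA over untreated, which came to -0.50 without the cells that held hair, pigment or muscle markers. Its UMIs were spread over 300 cells in AN-GelMA, 152 in GelMA and 159 in the untreated library. After thinning, 31.6% of AN-GelMA, 16.5% of GelMA and 27.6% of untreated basal cells had a UMI of Lrig1 (36.6%, 26.3% and 32.9% without thinning), against 4.62%, 4.38% and 5.61% of muscle type cells. Of 11 EGF family genes, 1 was higher and 5 were lower in AN-GelMA over GelMA (median log2 -0.35). In AN-GelMA over untreated none was higher and 2 were lower (median -0.40), and in GelMA over untreated 2 were higher and 1 was lower (median 0.09). Of all genes, 16.7%, 4.77% and 15.7% were called in these comparisons, in that order.

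**Figure D3:**
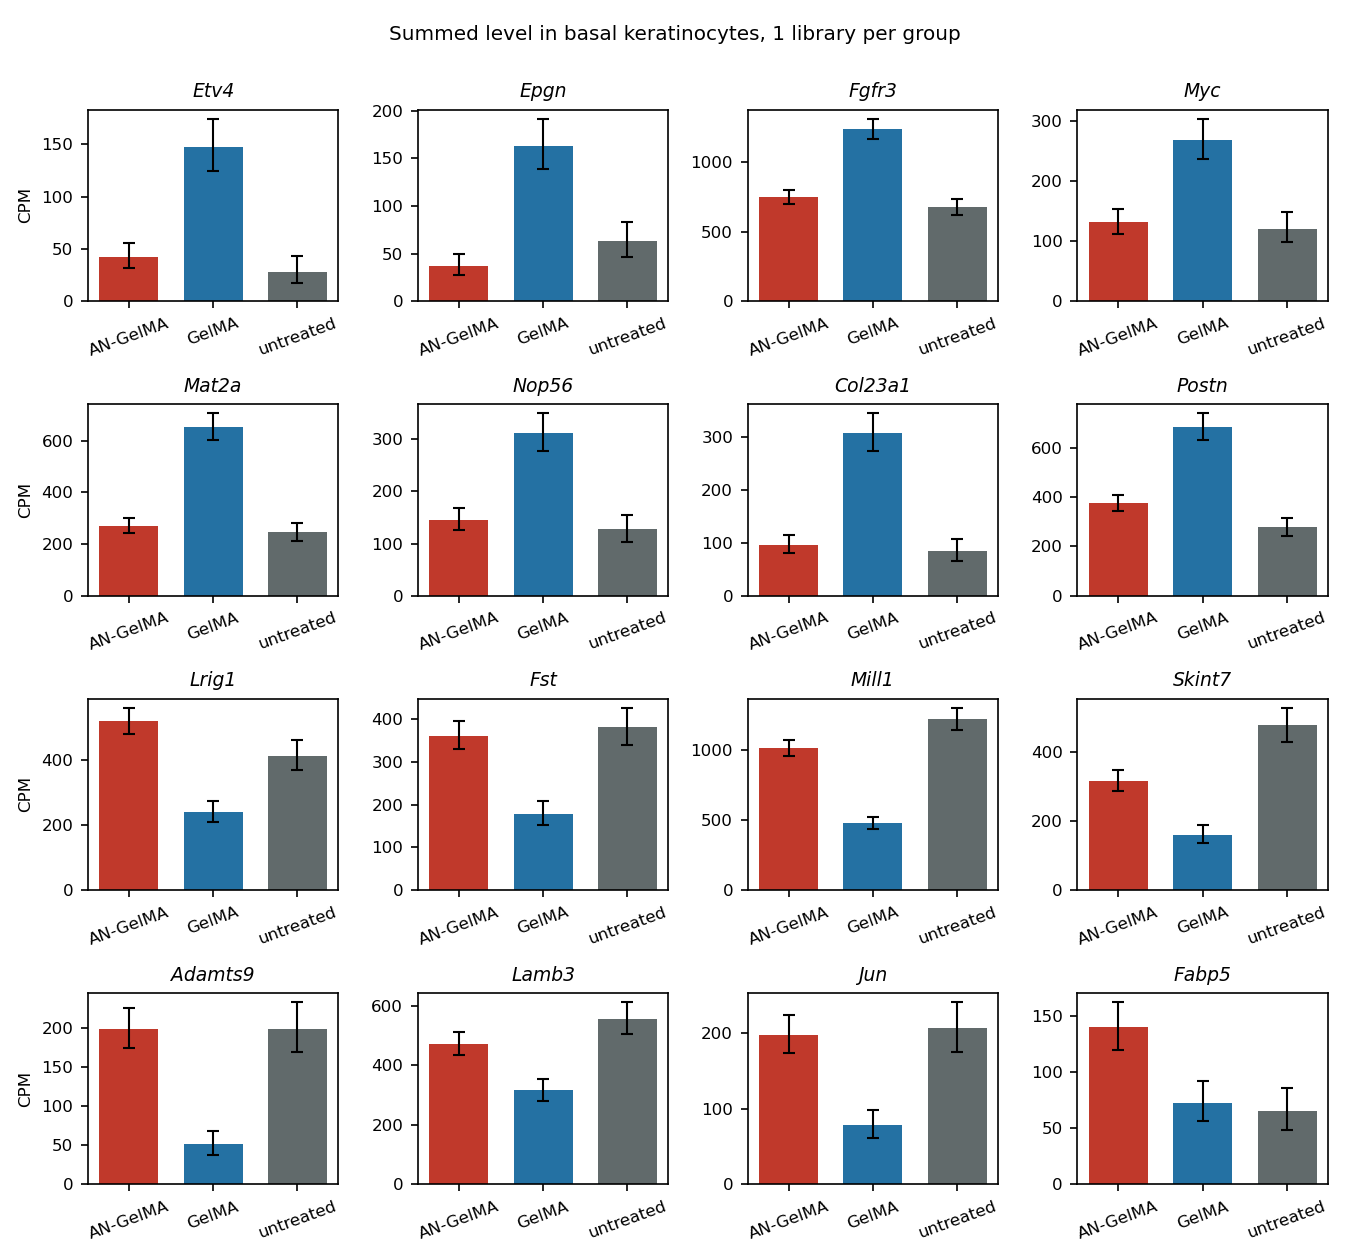
Summed CPM of 16 genes in basal keratinocytes of AN-GelMA, GelMA and untreated wounds, 1 library per group, with exact Poisson 95% intervals that cover counting error only. Etv4, Epgn, Fgfr3, Myc, Mat2a, Nop56, Col23a1 and Postn were highest in GelMA, and Lrig1, Fst, Mill1, Skint7, Adamts9, Lamb3 and Jun were lowest there.

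Genes of ribosome making and cell growth stood higher in GelMA as well. Of 16 genes for translation and growth, none was higher and 9 were lower in AN-GelMA over GelMA, with a median log2 ratio of -0.66 beside -0.03 for all genes. GelMA over untreated had 8 higher and none lower, with a median of 0.66, and AN-GelMA over untreated none higher and 1 lower (Eif4ebp1, a translation repressor), with a median of -0.04. The shares of all genes called were 16.7% for AN-GelMA over GelMA, 15.7% for GelMA over untreated and 4.77% for AN-GelMA over untreated. Myc, the growth regulator that lies upstream of many of them, was at 131 CPM in AN-GelMA, 268 in GelMA and 121 in untreated basal cells. The nucleolar protein gene Nop56 was at 146, 312 and 127 CPM in AN-GelMA, GelMA and untreated basal cells, with log2 ratios of -1.10 (-1.37 to -0.83) for AN-GelMA over GelMA and 1.29 (0.96 to 1.64) for GelMA over untreated. Eif4a1, the helicase that unwinds messages for ribosomes, was at 94.7, 221 and 91.3 CPM in the 3 libraries in that order. The polyamine enzymes Odc1 and Srm had log2 ratios of -1.44 and -1.54 for AN-GelMA over GelMA and of 1.39 and 1.40 for GelMA over untreated. Without cells that held hair, pigment or muscle markers Odc1 was at -0.85 for AN-GelMA over GelMA. Mat2a, which makes the methyl donor S-adenosylmethionine, was at 271, 653 and 246 CPM in AN-GelMA, GelMA and untreated basal cells and reached 314 of the 578 GelMA cells. Its ratio for GelMA over untreated was 1.41 (1.17 to 1.65), and 1.39 without the cells that held hair, pigment or muscle markers. The remaining cells had Mat2a at 245, 430 and 262 CPM in AN-GelMA, GelMA and the untreated library, so GelMA was highest there too.

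More cell cycle genes were higher than lower in GelMA. Of 28 genes, none was higher and 7 were lower in AN-GelMA over GelMA (median log2 -0.21), and 12 were higher and 1 was lower in GelMA over untreated (median 0.47). Of all genes, 16.7% and 15.7% were called in these comparisons. Among the genes of replication, the helicase subunit Mcm2 was at 66.9 CPM in AN-GelMA, 117 in GelMA and 50.2 in untreated basal cells, and the origin-licensing factor Cdc6 at 10.4, 40.6 and 12.9 CPM. Genes of mitosis were among those called in both comparisons too, with Ube2c and Cdc20, which both help to mark mitotic proteins for destruction. Cyclin E2 (Ccne2), which acts at the start of replication, was at 12.7, 42.8 and 19.3 CPM in AN-GelMA, GelMA and untreated basal cells. The mitotic cyclin Ccnb2 was the gene lower in GelMA over untreated, at 83.6 CPM in AN-GelMA, 63.1 in GelMA and 105.5 in untreated basal cells. Mki67, a general marker of dividing cells, was at 77.2, 69.5 and 96.5 CPM and was not called in any comparison. AN-GelMA over untreated had 1 gene higher, cyclin A2 (Ccna2), at 84.4 CPM in AN-GelMA and 43.7 CPM in untreated cells. That call was lost in 2 of 14 alternatives, and the call of Ccnb2 in 5 of 13. Without cycling cells the log2 ratio of Mcm2 for GelMA over untreated was 0.37, against 1.22 with them.

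Lipid synthesis genes followed the same grouping, with 1 higher and 7 lower of 13 in AN-GelMA over GelMA (median log2 -0.64) and 5 higher and none lower in GelMA over untreated (median 0.41). The shares of all genes called were 16.7% and 15.7% in these comparisons. Fatty acid synthase (Fasn) was at 103 CPM in AN-GelMA, 172 in GelMA and 99.0 in untreated basal cells. Most of these genes had lower levels in basal cells than in the remaining cells, where Fasn was at 142, 309 and 152 CPM in AN-GelMA, GelMA and the untreated library. The exception in direction was Fabp5, a fatty acid carrier of keratinocytes, at 140.1 CPM in AN-GelMA, 72.7 in GelMA and 65.6 in untreated basal cells. It was called higher in AN-GelMA than in both GelMA (log2 ratio 0.95, 0.53 to 1.37) and the untreated cells (1.10, 0.64 to 1.57), while the remaining cells had 390, 355 and 323 CPM.

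Hemidesmosome and basement membrane genes had few calls in the comparisons with AN-GelMA. Of 20 such genes, 2 were higher and none was lower in AN-GelMA over GelMA (median log2 0.24), none was called in AN-GelMA over untreated (median 0.03), and 1 was higher and 3 were lower in GelMA over untreated (median -0.40, against 0.03 for all genes, of which 15.7% were called). The gene that was higher in GelMA was Itga3, an integrin chain that binds the epidermal laminin, at 321 CPM in AN-GelMA, 467 in GelMA and 296 in untreated basal cells. The genes that were lower in GelMA were Lamb3, a chain of the epidermal laminin, Lamc1, a laminin chain of other trimers, and Npnt, a basement membrane ligand. Lamb3 was at 471 CPM in AN-GelMA, 315 in GelMA and 557 in untreated basal cells, a log2 ratio of -0.82 (-1.04 to -0.60) for GelMA over untreated. Its ratio for AN-GelMA over GelMA, 0.58 (0.38 to 0.79), fell just short of the limit for a call. All 4 calls of GelMA over untreated were lost in 1 or more of 14 alternatives, in 5 of them for Lamc1 and in 4 for Itga3.

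Several matrix and contact genes outside the anchoring list were called. Col23a1, a membrane-spanning collagen, was at 96.3 CPM in AN-GelMA, 307 in GelMA and 83.6 in untreated basal cells, with log2 ratios of -1.67 (-1.99 to -1.36) for AN-GelMA over GelMA and 1.88 (1.48 to 2.29) for GelMA over untreated. Periostin (Postn), a matrix protein, was at 375, 685 and 277 CPM, and thrombospondin 1 (Thbs1), which acts on cell adhesion and on latent TGF-beta, at 279, 526 and 252 CPM, in AN-GelMA, GelMA and untreated basal cells. Connexin 43 (Gja1), the gap junction protein of epidermis, was at 186, 459 and 192 CPM, and the phosphodiesterase Gdpd2 at 275, 711 and 297 CPM, in the 3 libraries in that order. GelMA was the highest library for all 5. The secreted protease Adamts9, which cleaves proteoglycans, lay the other way, at 199 CPM in AN-GelMA, 51.3 in GelMA and 199 in untreated basal cells, with a log2 ratio of 1.96 for AN-GelMA over GelMA and -1.96 (-2.46 to -1.48) for GelMA over untreated. E-cadherin (Cdh1), which holds epithelial cells together, was at 486, 327 and 562 CPM in AN-GelMA, GelMA and untreated basal cells, and its ratio of -0.78 for GelMA over untreated was called. Of 20 desmosome and junction genes, none was higher and 2 were lower (Gja1 and Ctnnb1) in AN-GelMA over GelMA, and 2 were higher and 1 was lower in GelMA over untreated, no more than the 16.7% and 15.7% of all genes called there. The hyaluronan synthase Has3 was at 4.78 CPM in AN-GelMA, 42.8 in GelMA and 10.3 in untreated basal cells, and the leukotriene receptor Ltb4r2 at 11.1, 64.2 and 11.6 CPM. In the remaining cells GelMA was highest for both, with Has3 at 3.89, 15.2 and 3.95 CPM and Ltb4r2 at 4.36, 20.9 and 6.66 CPM. It was lowest there for Col23a1, at 30.8, 29.5 and 34.3 CPM, and for Postn, at 214, 87.0 and 209 CPM.

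Most calls in a list of factors of the basal state and of its exit were for higher levels in GelMA. Of 19 genes, 1 was higher and 8 were lower in AN-GelMA over GelMA (median log2 -0.43), 1 was higher and 2 were lower in AN-GelMA over untreated (median -0.11), and 8 were higher and 1 was lower in GelMA over untreated (median 0.28). The shares of all genes called were 16.7%, 4.77% and 15.7% in these comparisons, in that order. Only 4 of the 8 lower in AN-GelMA over GelMA, and 3 of the 8 higher in GelMA over untreated, were no lower in basal than in the remaining cells. Trp63 was not called in any comparison, so a stronger basal state in GelMA is not read from this list. Klf5, which keeps basal cells dividing, was at 273 CPM in AN-GelMA, 480.1 in GelMA and 298 in untreated basal cells. Id3, an inhibitor of differentiation factors that responds to BMP, was at 25.5, 106 and 38.6 CPM, and Ovol1, a repressor active as cells leave the basal layer, at 21.5, 61.0 and 24.4 CPM, in AN-GelMA, GelMA and untreated basal cells. Runx1, a factor of follicle stem cells and wounds, was the gene that was higher in AN-GelMA over GelMA, at 355 CPM in AN-GelMA, 146 in GelMA and 296 in untreated basal cells. Jun and Fos, the partners of the AP-1 transcription factor, were also lowest in GelMA, with Jun at 197, 78.1 and 206 CPM and Fos at 50.2, 18.2 and 59.2 CPM in AN-GelMA, GelMA and untreated basal cells. Jun had a log2 ratio of 1.33 (0.95 to 1.73) for AN-GelMA over GelMA and -1.40 (-1.82 to -0.99) for GelMA over untreated, while the remaining cells had 285, 145 and 185 CPM. Over the whole list of immediate early and heat shock genes, 3 of 19 were higher and 4 were lower in AN-GelMA over GelMA, where 16.7% of all genes were called. Hspa8, a heat shock chaperone, was lower there, at 9.55 CPM in AN-GelMA, 50.3 in GelMA and 15.4 in untreated basal cells, and no heat shock gene of the list was called higher in AN-GelMA in either comparison.

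Early differentiation and follicle genes had calls in both directions in AN-GelMA over GelMA. Of 14 early differentiation genes, 1 was higher and 6 were lower in AN-GelMA over GelMA (median log2 -0.47), and 6 were higher and none was lower in GelMA over untreated (median 0.14). Of all genes, 16.7% and 15.7% were called in these comparisons. Only 1 of the 14 genes was no lower in basal than in the remaining cells, judged in the library with the higher basal level. The part that transcripts of other cells play in these calls was not tested. The desmosomal cadherin Dsc1 was at 22.3 CPM in AN-GelMA, 73.8 in GelMA and 21.9 in untreated basal cells, and the cross-linking enzyme Tgm1 at 11.1, 42.8 and 15.4 CPM. Dsc1 had log2 ratios of -1.73 for AN-GelMA over GelMA and 1.75 for GelMA over untreated, which came to -0.87 and 0.91 without cells that held hair, pigment or muscle markers. Galectin 7 (Lgals7), a stratified epithelium protein, was at 355, 726 and 336 CPM in AN-GelMA, GelMA and untreated basal cells. Keratin 1 (Krt1), the first suprabasal keratin, was the gene that was higher in AN-GelMA, at 1816, 1117 and 1379 CPM, although 22.0% of AN-GelMA, 26.5% of GelMA and 20.1% of untreated thinned basal cells had a UMI of it. Unthinned shares were 21.7%, 29.9% and 21.9%, and muscle type cells had 6.92%, 11.8% and 3.74%, so the share gave another order than the CPM and no order is read from it. The call of Krt1 for AN-GelMA over GelMA, at a log2 ratio of 0.70, was lost in 6 of 14 alternatives, with 0.12 as the lowest value. Of 12 follicle stem cell genes with enough UMIs, 1 was higher and 5 were lower in AN-GelMA over GelMA (median log2 -0.08). None of them was called in AN-GelMA over untreated, and 4 were higher and 2 were lower in GelMA over untreated (median 0.27). The Notch list had none higher and 2 lower of 12 in AN-GelMA over GelMA, Hes1, a Notch target, at 86.8 CPM in AN-GelMA, 173 in GelMA and 102 in untreated basal cells, and its fellow target Nrarp. That count was no more than the 16.7% of all genes called there, so no Notch difference is read from it. Receptor Notch1 was at 593, 552 and 576 CPM and was not called. Of 20 Wnt genes, 1 was higher and 5 were lower in AN-GelMA over GelMA, among them the feedback target Axin2 at 44.6, 102 and 60.5 CPM in AN-GelMA, GelMA and untreated basal cells.

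**Figure D4:**
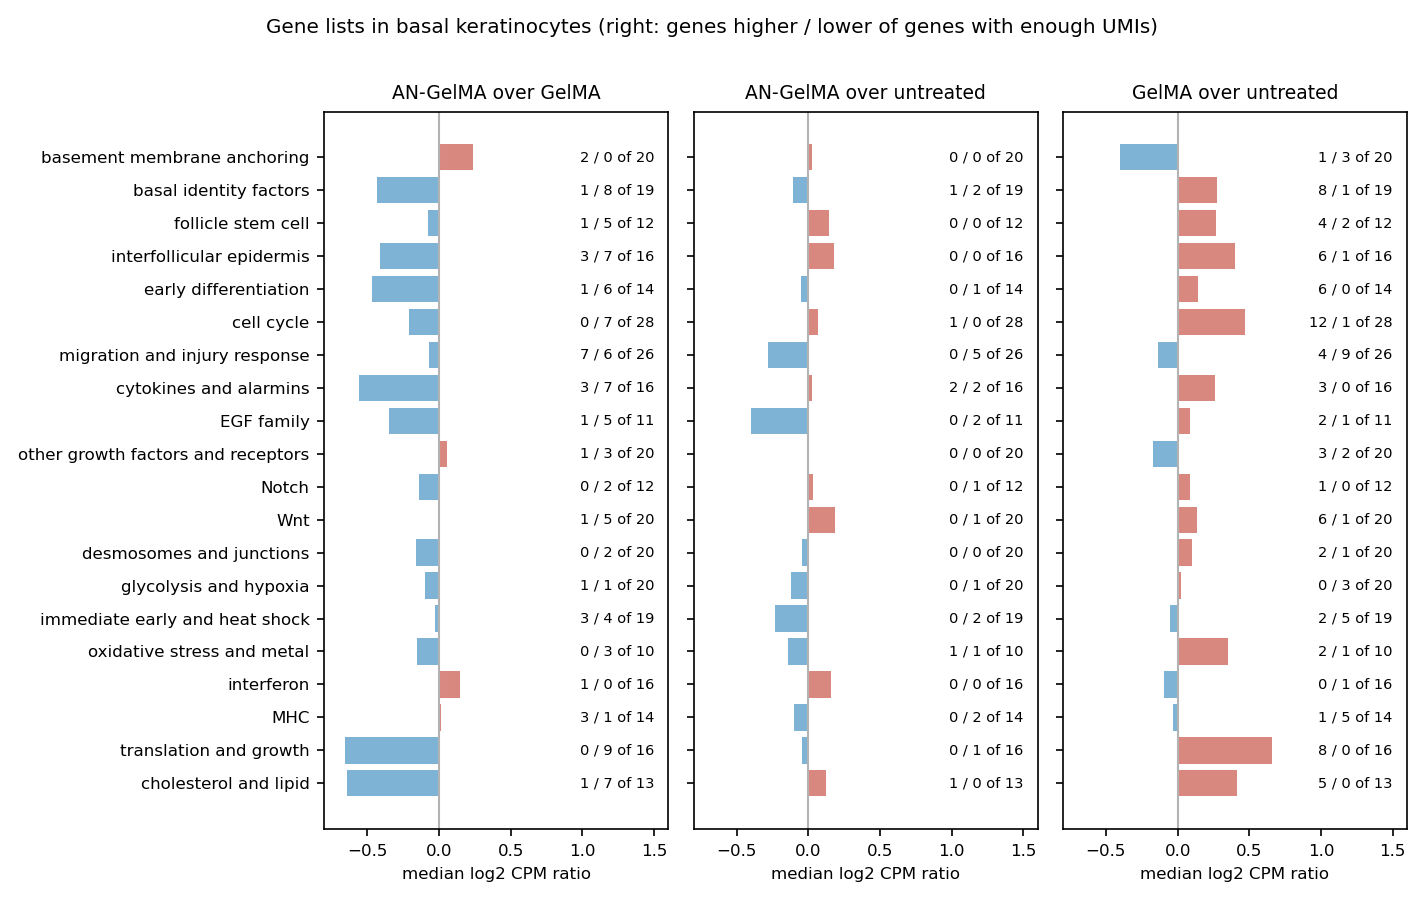
Median log2 CPM ratio of 20 gene lists in basal keratinocytes for AN-GelMA over GelMA, AN-GelMA over untreated and GelMA over untreated, with the number of genes higher and lower of those with enough UMIs. The median of translation and growth was -0.66 for AN-GelMA over GelMA, -0.04 for AN-GelMA over untreated and 0.66 for GelMA over untreated.

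Some surface proteins of immune recognition were lower in GelMA. Mill1, a class I related protein, was at 1014 CPM in AN-GelMA, 478 in GelMA and 1223 in untreated basal cells, with log2 ratios of 1.09 (0.93 to 1.24) for AN-GelMA over GelMA and -1.36 (-1.52 to -1.19) for GelMA over untreated. Skint7, of a family of epidermal proteins that includes the selecting element of skin gamma-delta T cells, was at 315, 159 and 476 CPM in AN-GelMA, GelMA and untreated basal cells. The class I gene H2-Q4 was at 241, 132 and 284 CPM. GelMA was also lowest in the remaining cells for Mill1, at 471 CPM in AN-GelMA, 224 in GelMA and 442 in the untreated library. The same held for Skint7, at 160, 64.1 and 182 CPM. The main class I heavy chain, H2-K1, was at 1804 CPM in AN-GelMA, 1906 in GelMA and 1958 in untreated basal cells and was not called. Of 14 MHC genes, 3 were higher and 1 was lower in AN-GelMA over GelMA (median log2 0.01), none was higher and 2 were lower in AN-GelMA over untreated (median -0.10), and 1 was higher and 5 were lower in GelMA over untreated (median -0.03). The gene highest in GelMA was B2m, the class I light chain, with 75 UMIs in AN-GelMA, 88 in GelMA and 44 in untreated cells. The 5 lower genes were H2-Q4 and Cd74, H2-Aa, H2-Ab1 and H2-Eb1 of class II presentation. Only 1 of the 5 was no lower in basal than in the remaining cells. Of all genes, 16.7%, 4.77% and 15.7% were called in these comparisons, in that order. In the list of interferon target genes few were called, 1 of 16 in AN-GelMA over GelMA, none in AN-GelMA over untreated and 1 in GelMA over untreated. Among 16 cytokines and alarmins, 3 were higher and 7 were lower in AN-GelMA over GelMA (median log2 -0.56), where 16.7% of all genes were called. Nfkbiz, a nuclear cofactor of NF-kappaB, was at 238, 413 and 229 CPM, and Csf1, the macrophage growth factor, at 78.0, 141 and 74.6 CPM, in AN-GelMA, GelMA and untreated basal cells.

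The genes high in GelMA basal cells were looked up in the other keratinocytes of the same libraries. Col23a1 for GelMA over untreated had a log2 ratio of 1.88 in basal cells, against -1.08 (-2.11 to -0.05) in suprabasal, 1.00 (-0.56 to 3.01) in injury and -1.49 (-2.48 to -0.55) in upper follicle cells. Postn was at 1.31 in basal cells, against -0.89 in suprabasal, 0.49 in injury and -1.55 in upper follicle cells. For these 2 genes the point values in suprabasal and upper follicle cells had the other sign. Etv4 stood at 2.38 in basal cells, against 1.73 in suprabasal, -0.47 in injury and 1.04 in upper follicle cells, and Mat2a at 1.41, against 1.03, 0.41 and 0.34. Mill1 was at -1.36 in basal cells, against -1.33 in suprabasal, 1.04 in injury and -0.73 in upper follicle cells. With 1 library per group the differences between kinds of cells could not be tested.

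Wound edge genes rested on few cells. Mmp13, the collagenase of migrating keratinocytes, was at 113 CPM in AN-GelMA, 12.8 in GelMA and 216 in untreated basal cells. Its 142 UMIs in AN-GelMA came from 21 cells with 73 in 1 cell, its 12 UMIs in GelMA from 3 cells with 10 in 1 cell, and its 168 untreated UMIs from 15 cells with 52 in 1 cell. The log2 ratio was 3.14 (2.29 to 4.13) for AN-GelMA over GelMA, -0.93 (-1.27 to -0.60) for AN-GelMA over untreated and -4.07 for GelMA over untreated, and these intervals treat the UMIs of 1 cell as independent. Mmp9, a gelatinase, was at 31.1, 19.2 and 152 CPM in AN-GelMA, GelMA and untreated basal cells, and 64 of its 118 untreated UMIs lay in 1 cell. Nrg1, a ligand of ERBB receptors, was at 72.5, 27.8 and 57.9 CPM, in AN-GelMA, GelMA and untreated basal cells. Areg, an EGF receptor ligand, was at 7.96, 21.4 and 33.4 CPM, Inhba, a chain of activin, at 11.1, 23.5 and 30.9 CPM, and Pthlh, the parathyroid hormone related peptide, at 20.7, 35.3 and 50.2 CPM. In the thinned data Mmp13 was seen in 1.84% of AN-GelMA, 0.651% of GelMA and 3.49% of untreated basal cells (2.56%, 0.519% and 3.11% without thinning). Of thinned muscle type cells, 0 of 130 in AN-GelMA, 0 of 685 in GelMA and 2 of 107 in untreated (1.87%) had a UMI of it. The counts of 0 allow up to 2.31% in AN-GelMA and 0.438% in GelMA, so a higher share in AN-GelMA basal cells is not shown. Over 26 genes of migration and injury response, 7 were higher and 6 were lower in AN-GelMA over GelMA, none was higher and 5 were lower in AN-GelMA over untreated, and 4 were higher and 9 were lower in GelMA over untreated. The shares of all genes called were 16.7%, 4.77% and 15.7% in these comparisons, in that order. The genes higher in AN-GelMA over GelMA included Vim, Fn1 and Tnc, which fibroblasts also make: Vim was at 153, 59.9 and 166 CPM in AN-GelMA, GelMA and untreated basal cells and at 950, 195 and 805 CPM in the remaining cells.

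Several of these genes had higher summed levels in the members that held Mmp13 or Mmp9 than in the other members. Cells with at least 2 UMIs over Mmp13 and Mmp9 numbered 15 in AN-GelMA, 4 in GelMA and 17 in the untreated library, and are described over all libraries with no test. They had Inhba at 352 CPM against 12.7 CPM in the other members, Areg at 260 against 13.4 CPM, and Nrg1 at 597 against 42.4 CPM. These levels rest on 23 UMIs of Inhba, 17 of Areg and 39 of Nrg1. Among all members, 1 cell held 15 of the 24 untreated Inhba UMIs and 1 cell 14 of the 26 untreated Areg UMIs. In GelMA 1 cell held 11 of the 20 Areg UMIs. How many of the cells shared these genes is thus not shown by the sums. Vegfa, the vessel growth factor, was at 2066 against 216 CPM.

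The levels of these genes turned on the limit for injury keratins. Without the limit of 2 UMIs of Krt6a, Krt6b and Krt16, the members numbered 883 cells in AN-GelMA, 647 in GelMA and 507 in the untreated library. Mmp13 was then at 269.8 CPM in AN-GelMA, 78.6 in GelMA and 212 in untreated cells, and AN-GelMA over untreated was at a log2 ratio of 0.35 in place of -0.93. Mmp9 was at 204, 175 and 147 CPM in AN-GelMA, GelMA and untreated cells, and its ratios turned to 0.47 for AN-GelMA over untreated and 0.25 for GelMA over untreated. Areg was at 35.1, 34.0 and 72.6 CPM in AN-GelMA, GelMA and untreated cells, so AN-GelMA and GelMA then lay together. Ccl20, a chemokine for Langerhans and T cells, was at 7.17 CPM in AN-GelMA, 39.6 in GelMA and 39.9 in untreated cells with the limit and at 6.07, 34.9 and 36.3 CPM without it. Pthlh was at 76.2, 50.0 and 77.3 CPM in AN-GelMA, GelMA and untreated cells without the limit, where AN-GelMA over GelMA was at 0.61 in place of -0.77 and AN-GelMA over untreated at -0.02 in place of -1.28. For Mmp13 and Mmp9 the order of AN-GelMA and untreated cells therefore depended on the limit, and for Ccl20 it did not.

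**Figure D5:**
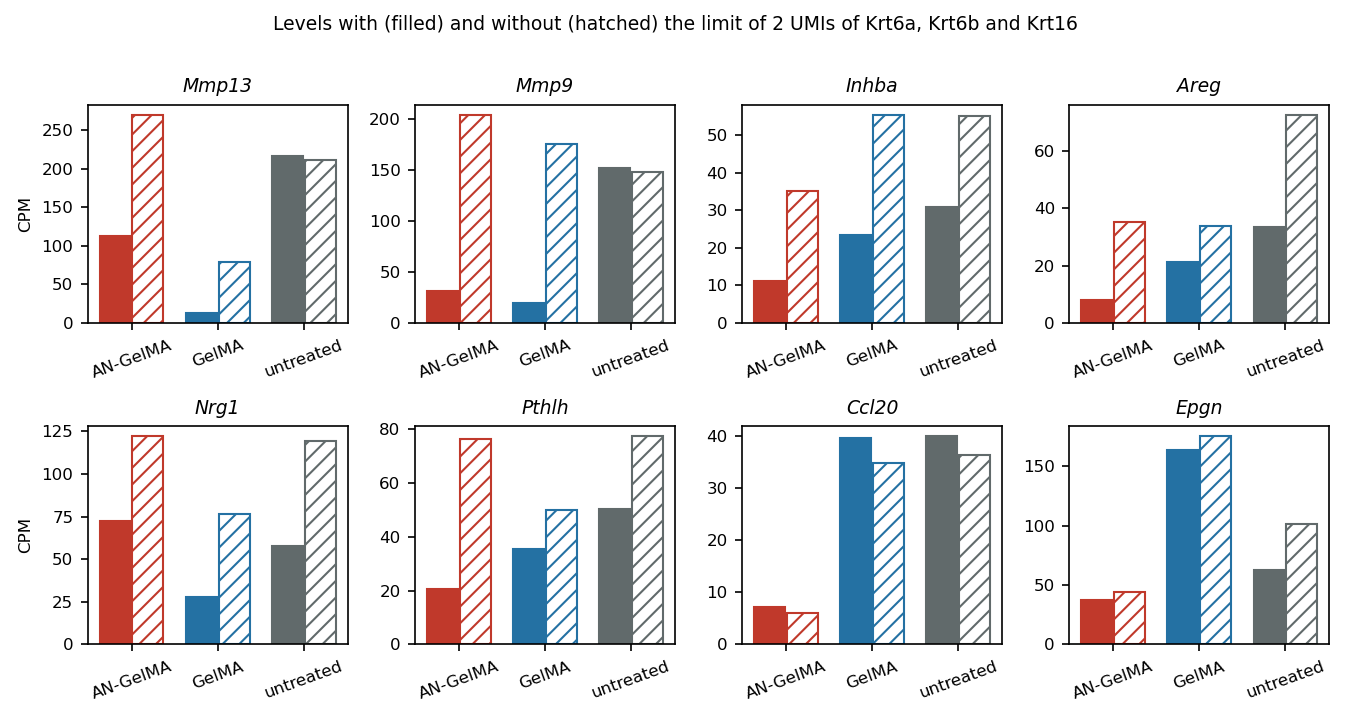
CPM of 8 genes in basal keratinocytes of AN-GelMA, GelMA and untreated wounds, with the limit of 2 UMIs of Krt6a, Krt6b and Krt16 (filled bars) and without it (hatched bars). Mmp13 in AN-GelMA was at 113 CPM with the limit and 269.8 CPM without it, against 216 and 212 CPM in the untreated library.

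Promoter sequences are shown for the wound edge genes because AP-1, whose partners Jun and Fos differed between the libraries, is a known regulator of such genes. RefSeq promoters on GRCm38.p6, which is not the build of the counts, were at hand for 3 of 5 genes looked up (Mmp13, Inhba and Areg, not Mmp9 or Nrg1). Each is the 250 bases before the start on the plus strand, at chr9:7272264-7272513 for Mmp13, chr13:16011601-16011850 for Inhba and chr5:91139349-91139598 for Areg, with capitals for the AP-1 motif TGAGTCA or its other strand TGACTCA.
Mmp13: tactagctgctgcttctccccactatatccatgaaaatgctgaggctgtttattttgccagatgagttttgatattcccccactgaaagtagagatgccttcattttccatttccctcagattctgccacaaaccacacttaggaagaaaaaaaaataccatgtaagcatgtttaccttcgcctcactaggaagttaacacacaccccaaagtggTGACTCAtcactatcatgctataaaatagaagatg
Inhba: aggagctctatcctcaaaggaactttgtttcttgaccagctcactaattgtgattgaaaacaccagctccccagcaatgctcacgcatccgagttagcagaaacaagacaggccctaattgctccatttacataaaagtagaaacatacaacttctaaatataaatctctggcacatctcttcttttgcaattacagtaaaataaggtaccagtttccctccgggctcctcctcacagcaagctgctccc
Areg: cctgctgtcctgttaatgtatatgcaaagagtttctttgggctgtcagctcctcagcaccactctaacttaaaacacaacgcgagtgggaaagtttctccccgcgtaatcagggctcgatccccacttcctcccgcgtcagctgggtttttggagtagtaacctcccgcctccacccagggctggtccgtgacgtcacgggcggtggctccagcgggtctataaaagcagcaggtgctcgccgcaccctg

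Mmp13 held 1 match, 35 bases before the start, and Inhba and Areg held none in this window. Of 32851 promoters in the table, 1466 (4.46%) held the motif in the same window. The match is a description of the sequence, and binding was not measured.

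AN-GelMA over untreated, the comparison with the fewest called genes, had its widest differences in genes of low count. The 10 highest were Dnmt3l, Ints12, Nuf2, Mab21l4, Fabp5, Gmcl1, Rex1bd, Sulf2 and the pigment genes Dct and Tyrp1. Dnmt3l, a cofactor of DNA methylation, was at 39.0 CPM in AN-GelMA, 23.5 in GelMA and 6.43 in untreated basal cells, a log2 ratio of 2.60 (1.28 to 4.29) for AN-GelMA over untreated, while the remaining cells had 34.4, 29.1 and 26.4 CPM. Nuf2, of the kinetochore, was at 30.3, 34.2 and 7.72 CPM in AN-GelMA, GelMA and untreated basal cells. Dnmt3l, Nuf2 and Mab21l4 were lowest in the untreated library and above it in both gel libraries. Ephx2, an epoxide hydrolase, was at 39.8 CPM in AN-GelMA, 13.9 in GelMA and 15.4 in untreated basal cells, which put AN-GelMA above both. Of the alarmins, Il36g, an epidermal member of the interleukin 1 family, was at 57.3, 33.1 and 27.0 CPM, with a log2 ratio of 1.09 (0.37 to 1.86) for AN-GelMA over untreated. Il1b, at 60.5 CPM in AN-GelMA and 37.3 CPM in untreated basal cells, was the other cytokine called higher, but its log2 ratio of 0.70 lost the call in 4 of 14 alternatives and was -0.14 with at least 2 UMIs of the anchoring genes.

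The lowest genes of that comparison included Mmp9, Ccl20 and Areg beside the muscle gene Myh4. Ccl20 had a log2 ratio of -2.48 (-3.73 to -1.37), resting on 9 UMIs in 6 AN-GelMA cells and 31 UMIs in 10 untreated cells. In the remaining cells it was at 21.8 CPM in AN-GelMA, 13.5 in GelMA and 8.26 in the untreated library. Sectm1a, a secreted and membrane protein, was at 38.2, 113 and 97.8 CPM in AN-GelMA, GelMA and untreated basal cells, and the laminin chain Lama1 at 54.9, 98.4 and 117 CPM. Sectm1a and Lama1 had higher levels in basal than in the remaining cells of every library, and Sectm1a lost its call against untreated cells in 1 of 14 alternatives, at -0.47. For Ccl20, Sectm1a and Lama1 it was thus AN-GelMA that lay below both other libraries, whereas for Etv4, Mat2a, Col23a1 and Mill1 GelMA was the library apart. For Etv4, Mat2a and Mill1, GelMA lay apart in the remaining cells as well.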

How the data were processed

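Single-cell RNA of 3 wound libraries, 1 per group, was measured with GEM-X Flex probes. The deposited matrices hold raw UMI counts that the authors made per cell and feature, using version 10.0.0 of Cell Ranger as the matrix headers state, on GRCm39 (mm39) per the submitters' processing notes, over 19070 features. Cell filters applied before deposit were not given in the sources used here. No doublet caller was run. A minimum of 250 genes and a maximum of 10% of UMIs from mitochondrial genes were set per cell, which removed 36 AN-GelMA, 147 GelMA and 34 untreated cells.

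Counts were summed over member cells and divided by their total. Ratios carry exact conditional binomial 95% intervals, CPM exact Poisson intervals and shares exact Clopper-Pearson intervals, all for counting error only. A count of 0 was given a limit of 3 UMIs. The 17 rule genes were left out of counts of called genes. Clusters used 1500 variable genes, 20 principal components, 15 neighbours and a resolution of 0.4. The ratio step was tested on simulated counts. Named genes are the 10 highest and 10 lowest called genes of a comparison by the interval bound nearest 0, also among genes no lower in basal than in the remaining cells of the library with the higher level, and members of 20 gene lists. The members and lists were chosen with earlier results of these data known. Tools were Python 3.11.15, NumPy 2.4.6, SciPy 1.17.1, pandas 2.3.3, Scanpy 1.11.5, matplotlib 3.10.9, R 4.3.3 and, for TMM scaling, edgeR 4.0.16. Results of some genes are not reported here.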

Additional observations from a re-analysis of the deposited data

How the results depend on the processing

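No paired analysis was possible because no group holds more than 1 library. Counts below are genes higher and then lower. With at least 200 UMIs per gene they were 287 and 241 for AN-GelMA over GelMA, 34 and 41 for AN-GelMA over untreated and 263 and 283 for GelMA over untreated, since fewer genes were tested. With at least 1 UMI, 1305 were lower for AN-GelMA over GelMA and 400 for AN-GelMA over untreated. With a ratio of 2 they were 227 and 361, 49 and 91, and 350 and 256 in the same comparisons. With cells thinned before the rule they were 388 and 418 for AN-GelMA over GelMA and 370 and 337 for GelMA over untreated, with 149 lower for AN-GelMA over untreated. Among genes no lower in basal than in the remaining cells they were 292 and 561 for AN-GelMA over GelMA, with 159 lower for AN-GelMA over untreated and 289 lower for GelMA over untreated. That setting, the one without each gene's top cell and the one without cells with hair, pigment or muscle markers were chosen after seeing the data.

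The share of members in AN-GelMA, GelMA and the untreated library was 9.75%, 6.08% and 9.14% with at least 2 anchoring UMIs, 6.10%, 3.75% and 5.81% with at least 5, and 7.03%, 3.49% and 6.57% with no Krt10, Lor, Krt6a, Krt6b or Krt16 UMI. Without the limit on Krt6a, Krt6b and Krt16 it was 9.19% in AN-GelMA and 5.72% in GelMA.

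Of the differences of named genes that were followed through the alternatives, 85 of 99 for AN-GelMA over GelMA, 20 of 38 for AN-GelMA over untreated and 78 of 104 for GelMA over untreated stayed past 1.5 times in the same direction under every alternative run. Some called genes named above were not followed, among them Ube2c, Cdc20, Ctnnb1, Nrarp, B2m, Eif4ebp1 and Tyrp1. The log2 ratio changed sign in 13 cases, and the cause was not tested. Without the limit on injury keratins, AN-GelMA over GelMA was at 0.046 for Areg and 0.61 for Ifi202b, AN-GelMA over untreated at 0.22 for Ifi202b, 0.35 for Mmp13 and 0.47 for Mmp9, and GelMA over untreated at 0.25 for Mmp9. With thinned cells, Inhba was at 0.45 for AN-GelMA over GelMA, and Abcb1b at -0.40, Pthlh at 0.59 and Sulf2 at -0.18 for AN-GelMA over untreated. Areg for AN-GelMA over GelMA was at 0.63 without cells with hair, pigment or muscle markers, and Mab21l4 at 0.12 without the deepest 5% of cells. Il1b for AN-GelMA over untreated was at -0.14 with at least 2 anchoring UMIs. Fgfr3 for AN-GelMA over GelMA came down to -0.52 at the least, and Lamb3 for GelMA over untreated to -0.51.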
